A study of Homo sapiens with 6 samples.

Results

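The 10 genes studied here belong to the feedback arm of ERK signalling: the MAP kinase phosphatases DUSP1, DUSP4, DUSP5 and DUSP6, the Sprouty genes SPRY1, SPRY2 and SPRY4, and the ERK-induced genes PHLDA1, ETV4 and ETV5. They were taken as every probe set whose only gene symbol in the platform annotation is one of these names, which gave 20 probe sets for 10 genes, out of 22277 probe sets and 11963 genes on the array. All 6 samples are labelled as HSC2, an established line from a human oral squamous carcinoma. This is the labels' identity, and squamous markers were lower and luminal breast markers higher on the arrays labelled MALT1. Their RNA was hybridised to Affymetrix arrays, 1 array per sample. In 3 samples the cells were labelled as stably carrying full-length wild-type MALT1 cDNA, and in the other 3 as carrying the empty vector, called mock. MALT1 is a paracaspase of NF-kappaB signalling, and the comparison was set up to find genes that respond to it. Both lines had been made earlier and were grown in the same serum-containing medium. The sources used here do not say which promoter drove the cDNA, whether a line was 1 clone or a pool, or whether the samples of a group were separate cultures. The spread behind each p-value is therefore that among these 6 samples, and part or all of it may be technical.

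ERK is the last kinase of the RAS-RAF-MEK cascade that runs from growth factor receptors such as EGFR to the nucleus. Active ERK switches on its own inhibitors: DUSP proteins remove phosphate from MAP kinases, and Sprouty proteins act further upstream, between the receptor and RAF. ETV4 and ETV5 are ETS transcription factors induced by the same route, and PHLDA1 is a pleckstrin-homology-like protein that is also induced by it. Because their transcripts follow ERK activity in many epithelial and tumour cells, these genes are often read together as an ERK output signature.

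The labels were not borne out by the arrays, so the groups are called by their labels throughout. MALT1 transcript was lower on the arrays labelled MALT1 in 2 of its 3 probe sets, by 1.08 on the log2 scale in the larger case (120 ± 11.3 against 254 ± 25.0; mean ± SD, n = 3 each; limma adjusted p = 0.0022). Where on the transcript these probes lie was not analysed here, and they would miss a cDNA that lacks that stretch. Of 12 measured squamous or basal keratinocyte markers, 11 fell and 0 rose, and on the arrays labelled MALT1 their summed signal was 16575 to 18441, against 51486 to 56167 on the others. KRT5 still read 1003 ± 14.3 there, and KRT16 was dim on all 3 arrays labelled MALT1. Of 15 luminal breast epithelium markers, 14 rose and 0 fell, with a summed signal of 79443 to 87486 against 9021 to 9744. Of these, 5 were dim on all 3 arrays labelled mock, KRT19, FOXA1, TFF1, SPDEF and GREB1, and PGR was dim in both groups. Fibroblast, leukocyte and endothelial markers summed to at most 285, 613 and 52.5 on any array. The difference in these epithelial markers and the difference between the groups cannot be told apart in this design, and this holds for every result on the ERK genes. In such bulk RNA, a smaller share of cells of one type and less RNA per cell cannot be told apart either.

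The arrays had a median signal of 64.7 to 79.3 and a ratio of 3′ to 5′ signal of 3.59 to 4.46 for ACTB and 0.950 to 1.12 for GAPDH. MALT1 replicate 3 stood at the edge of these ranges, with the highest median, the highest ratios and the fewest probe sets at or below 17.6 (25.6%, against 31.7% to 33.3% on the others). That signal, the highest of the bacterial trp control probe sets on any array, is used here as the level below which a probe set is called dim. Of the 20 probe sets, 1 was dim in both groups and 1 on the arrays labelled MALT1, and another 2 were above the level on only some arrays of a group. The median log2 difference over all 22215 probe sets tested was 0.08, and −0.05 after each array was centred on its median.

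Promoter sequences of 300 bases, from 250 before to 50 after the annotated start, were held by the RefSeq table (GRCh38.p14) for 6 of the 10 genes, in 9 windows, since SPRY1 has 2 and SPRY2 has 3. They were searched on both strands for the ETS motif CCGGAAG, the cAMP response element TGACGTCA and the AP-1 motif TGANTCA. A pattern standing in for the core of the serum response element was searched in the same way. Its inner letters are partly fixed and partly free. It therefore misses some forms of the core and accepts other sequences. The 4 windows shown are those of the gene that was higher on the arrays labelled MALT1 (DUSP1), of the genes with the largest falls (DUSP6 and PHLDA1), and of the 1 Sprouty window with a match. They are written 5′ to 3′, with a motif match in capitals.
DUSP1 promoter, chr5:172771146-172771445, minus strand: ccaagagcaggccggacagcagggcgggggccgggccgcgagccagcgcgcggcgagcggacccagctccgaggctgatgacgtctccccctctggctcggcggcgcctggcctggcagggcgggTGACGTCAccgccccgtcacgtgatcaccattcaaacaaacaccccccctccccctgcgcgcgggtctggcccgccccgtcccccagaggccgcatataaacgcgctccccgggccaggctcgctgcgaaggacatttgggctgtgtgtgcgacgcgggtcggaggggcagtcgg
DUSP6 promoter, chr12:89352452-89352751, minus strand: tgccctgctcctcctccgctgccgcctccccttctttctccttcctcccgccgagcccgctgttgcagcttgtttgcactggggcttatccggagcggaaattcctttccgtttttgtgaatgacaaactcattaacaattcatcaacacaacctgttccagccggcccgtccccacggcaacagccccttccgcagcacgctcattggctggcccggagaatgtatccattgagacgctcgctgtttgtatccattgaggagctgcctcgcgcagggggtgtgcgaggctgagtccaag
PHLDA1 promoter, chr12:76031727-76032026, minus strand: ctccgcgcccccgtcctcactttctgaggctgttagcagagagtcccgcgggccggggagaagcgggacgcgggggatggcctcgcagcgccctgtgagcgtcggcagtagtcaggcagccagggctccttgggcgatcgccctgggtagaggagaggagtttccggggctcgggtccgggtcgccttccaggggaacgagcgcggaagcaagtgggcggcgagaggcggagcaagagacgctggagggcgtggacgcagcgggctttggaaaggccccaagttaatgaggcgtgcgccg
SPRY1 promoter, chr4:123398136-123398435, plus strand: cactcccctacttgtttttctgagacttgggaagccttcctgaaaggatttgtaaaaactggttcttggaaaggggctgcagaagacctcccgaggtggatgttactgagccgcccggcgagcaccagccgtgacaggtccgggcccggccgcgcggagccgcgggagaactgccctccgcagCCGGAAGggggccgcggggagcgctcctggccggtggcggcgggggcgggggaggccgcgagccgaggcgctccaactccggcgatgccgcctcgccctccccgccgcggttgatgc
The DUSP1 window held TGACGTCA from base −125 relative to the start, a word found in 1.85% of all 35116 windows. The second SPRY1 window held CCGGAAG from base −67, which is in 10.3% of all windows. No window of the members held TGANTCA or the pattern used for the serum response core, which are in 7.71% and 1.94% of all windows. The DUSP6 and PHLDA1 windows therefore show no capitals, which says only that these letters are not in the 300 bases searched. The DUSP1 window was 73.3% G and C, that of PHLDA1 69.3% and that of DUSP6 58.3%, against a median of 58.7% over all windows.

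Most of the feedback genes were lower on the arrays labelled MALT1, 1 was higher, and the size of the fall differed widely between them. Of the 20 probe sets, 12 fell, 1 rose and 7 did not pass (limma, Benjamini-Hochberg adjusted p under 0.05). Over all probe sets, 17.0% fell and 18.6% rose by the same rule. Counted by gene, with the brightest probe set for each, 6 of 10 fell (DUSP5, DUSP6, SPRY1, SPRY2, SPRY4 and PHLDA1), 1 rose (DUSP1) and 3 did not pass (DUSP4, ETV4 and ETV5), beside 19.2% of all genes that fell and 21.1% that rose. Of all 20 probe sets, 10 fell at least 2-fold and 8 at least 4-fold, where 8.57% and 3.19% of all probe sets did so. The 8 belong to DUSP5, DUSP6 and PHLDA1 alone, and the 10 to these genes and SPRY2. The median log2 difference of the 10 genes was −0.99, or −0.92 with ETV4 at its bound, against 0.08 over all genes. Both groups stood apart without overlap in 15 of the 20, with the arrays labelled MALT1 the lower group in 14 and the higher in 1, beside 23.3% and 26.4% of all probe sets. The 10 genes were chosen with earlier results of these arrays known.

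**Figure D1:**
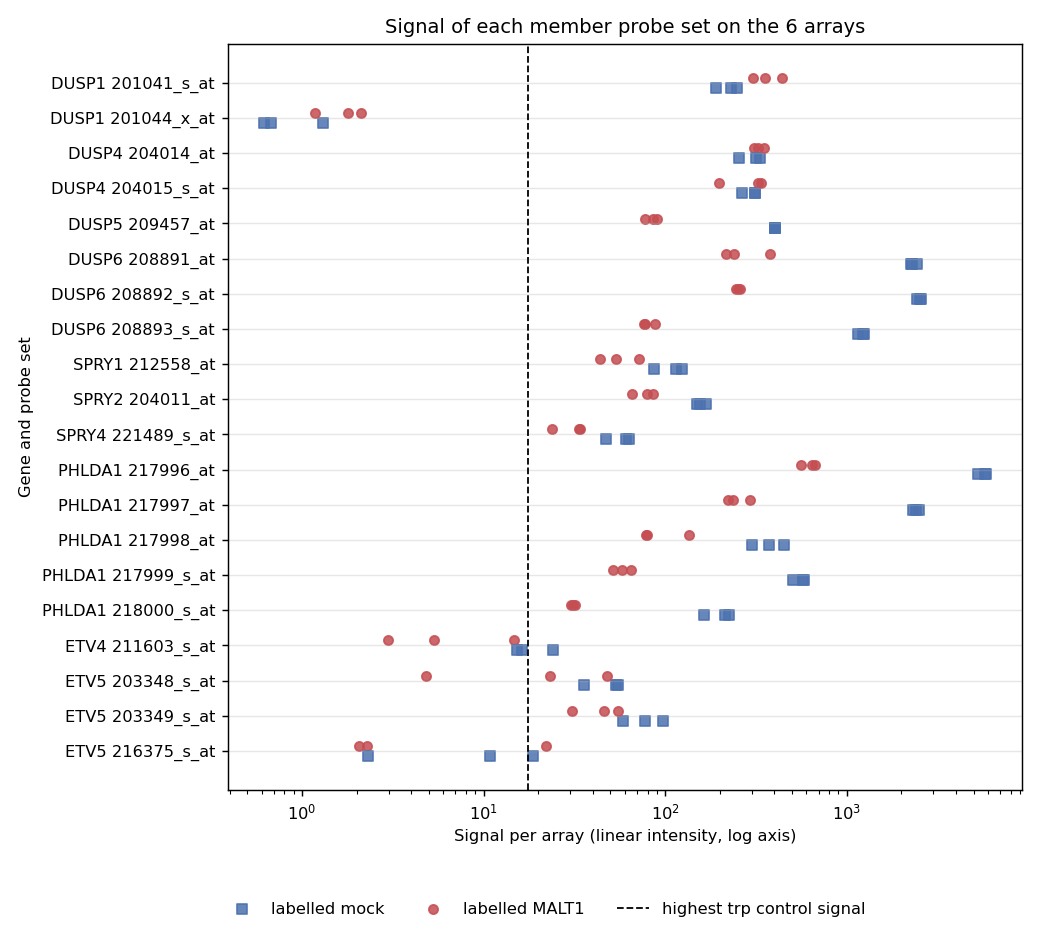
Signal of each of the 20 probe sets on each array, on a log axis of linear intensity, with 1 point per array (circles for the 3 labelled MALT1, squares for the 3 labelled mock) and a dashed line at the dim level of 17.6. The groups stand far apart for DUSP5, DUSP6 and PHLDA1, lie close for the Sprouty genes, and overlap for DUSP4.

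DUSP6, the cytoplasmic phosphatase that acts mainly on ERK, fell in all 3 of its probe sets. On the brightest, 208892_s_at, it read 246, 258 and 252 on the arrays labelled MALT1 and 2530, 2568 and 2433 on those labelled mock. The arrays of a group were within a few percent of each other, and the groups did not come near overlap (log2 difference −3.31 ± 0.08 SE, limma adjusted p = 5.4e-05). Probe set 208893_s_at read 76.7, 88.0 and 77.7 against 1229, 1158 and 1247, the largest difference among the 20 probe sets (−3.89 ± 0.10 SE). Probe set 208891_at read 238, 215 and 379 against 2453, 2276 and 2263, with MALT1 replicate 3 the highest of its group and still far below the arrays labelled mock (−3.11 ± 0.23 SE). Of 11963 genes, 63 had a lower log2 difference than DUSP6 by brightest probe set, although dim signals inflate such ranks.

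DUSP5, a nuclear phosphatase specific for ERK, has 1 probe set, which fell. It read 77.7, 86.1 and 89.8 on the arrays labelled MALT1 and 404, 405 and 404 on those labelled mock. The 3 mock arrays were almost identical, and the fall was 2.25 on the log2 scale (95% interval −2.48 to −2.01, limma adjusted p = 1.0e-04). The log2 ratio of DUSP6 to DUSP5 on the same array ranged from 1.48 to 1.65 in the group labelled MALT1 and from 2.59 to 2.66 in the group labelled mock, without overlap. In all, 18 such within-array ratios were computed, and the smallest p that an exact two-sided permutation test of 3 arrays against 3 can give is 0.10, which this ratio reached (0.257 after Benjamini-Hochberg adjustment).

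DUSP1 and DUSP4, the nuclear phosphatases with a wider choice of MAP kinases, did not fall. DUSP1, an immediate early gene that acts on p38, JNK and ERK, read 306, 356 and 438 on probe set 201041_s_at on the arrays labelled MALT1 and 229, 248 and 191 on those labelled mock. Every array labelled MALT1 was above every array labelled mock, but both groups were spread, and the rise was 0.71 ± 0.18 SE on the log2 scale (limma adjusted p = 0.032). The call did not hold when an array was left out, except without MALT1 replicate 1. The adjusted p was 0.0825 without MALT1 replicate 2 and 0.0618 without MALT1 replicate 3. It was 0.0813, 0.0581 and 0.0880 without mock replicates 1, 2 and 3, with log2 differences of 0.57 to 0.79 over these 5. The other DUSP1 probe set, 201044_x_at, read at most 2.12 on any array and so was dim in both groups and gives no fold.

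DUSP4, which acts on ERK and JNK, showed no difference that passed in either probe set. It read 324, 311 and 351 against 335, 255 and 318 on 204014_at, and 199, 324 and 338 against 314, 265 and 312 on 204015_s_at. The groups overlapped in both. The 95% interval of the log2 difference was −0.22 to 0.47 on the first and −0.69 to 0.52 on the second, so a fall of the size measured for DUSP5 or DUSP6 lay outside both. Its direction was not settled, since the first estimate turned from 0.13 to −0.00226 with median centring and the second from −0.08 to 0.16 without MALT1 replicate 1.

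All 3 Sprouty genes fell, each measured by 1 probe set, with log2 differences from −1.03 to −0.89. SPRY2, an inhibitor of receptor-to-RAS signalling, read 79.7, 85.4 and 66.0 on the arrays labelled MALT1 and 150, 156 and 169 on those labelled mock. The groups were clearly apart, and the fall was 1.03 on the log2 scale (95% interval −1.36 to −0.71, limma adjusted p = 0.0029). It passed with any array left out.

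SPRY1 read 53.3, 43.6 and 71.5 against 115, 124 and 87.1, and its groups were separated by a narrow gap between MALT1 replicate 3 and mock replicate 3 (−0.95 ± 0.24 SE, limma adjusted p = 0.030). SPRY4 read 23.8, 33.9 and 33.7 against 63.1, 60.6 and 47.0, close to the dim level (−0.89 ± 0.20 SE, limma adjusted p = 0.021). Both calls were lost when certain arrays were left out. For SPRY1 the adjusted p was 0.0873 without MALT1 replicate 1, 0.0743 without MALT1 replicate 2, 0.0929 without mock replicate 1 and 0.0934 without mock replicate 2. For SPRY4 it was 0.0712 without mock replicate 1 and 0.0732 without mock replicate 2. The within-array log2 ratio of SPRY2 to SPRY1 differed between the groups by −0.08 (exact two-sided permutation p = 1.0, also after adjustment), and that of SPRY4 to SPRY2 by 0.15 (exact p = 0.6, or 0.847 after adjustment), with overlapping groups in both ratios.

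PHLDA1 fell in all 5 of its probe sets. The brightest, 217996_at, read 670, 641 and 560 on the arrays labelled MALT1 and 5792, 5878 and 5266 on those labelled mock (log2 difference −3.18 ± 0.11 SE, limma adjusted p = 7.4e-05). Probe sets 217997_at and 217999_s_at gave nearly the same difference, −3.27 and −3.24, at lower signals of 222 to 292 against 2322 to 2501 and of 51.7 to 64.8 against 508 to 581. The other 2 gave smaller falls. Probe set 218000_s_at read 31.9, 30.2 and 31.2 against 226, 163 and 214 (−2.64 ± 0.15 SE), with its lower group not far above the dim level.

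Probe set 217998_at read 78.9, 79.8 and 135 against 375, 451 and 302 (−1.96 ± 0.28 SE). Here MALT1 replicate 3 was the high array of its group and mock replicate 3 the low one. Relative to 217996_at on the same array, this probe set stood 1.22 higher on the log2 scale on the arrays labelled MALT1 than on the others (exact two-sided permutation p = 0.10, the smallest possible, and 0.257 after adjustment over the 18 ratios). The log2 difference of PHLDA1 ranged from −3.27 to −1.96 over its probe sets, all in 1 direction. The 95% intervals of PHLDA1 on 217996_at (−3.46 to −2.90) and DUSP6 on 208892_s_at (−3.51 to −3.11) overlapped.

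ETV4 and ETV5, ETS factors of the PEA3 group, were dim or near dim, and none of their 4 probe sets passed. ETV4 read 14.6, 2.96 and 5.30 on the arrays labelled MALT1, all dim, and 24.2, 16.3 and 15.3 on those labelled mock, of which 1 was above the dim level. The groups did not overlap, but the fold is bounded only as at least 1.03-fold lower (limma adjusted p = 0.112). Without MALT1 replicate 1 it passed (adjusted p = 0.0169).

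ETV5 on its brightest probe set, 203349_s_at, read 30.6, 45.9 and 55.1 against 96.9, 58.7 and 77.3, without overlap but with a narrow gap (−0.82, 95% interval −1.56 to −0.08, limma adjusted p = 0.087). It passed after median centring (adjusted p = 0.0427) and after quantile normalization (adjusted p = 0.0295). Probe set 203348_s_at read 23.2, 4.82 and 47.8 against 54.8, 53.9 and 35.6, with MALT1 replicate 2 dim and the groups overlapping. Probe set 216375_s_at was above the dim level on 1 array of each group and overlapped too. A fall of ETV5 of the size seen for the Sprouty genes lay inside the interval of each of its probe sets.

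**Figure D2:**
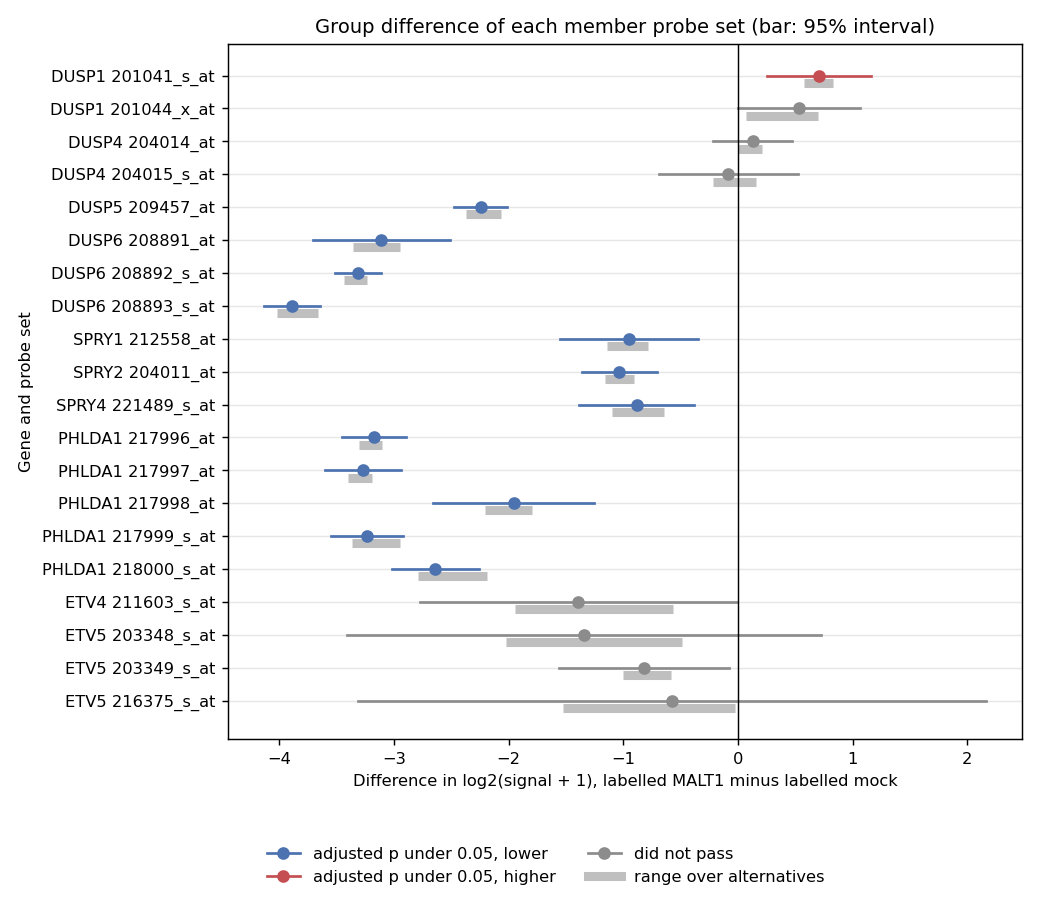
Difference in log2(signal + 1), arrays labelled MALT1 minus arrays labelled mock, for each of the 20 probe sets, with the 95% interval of the limma fit as a line and the range over up to 13 alternative settings as a grey bar. DUSP6, PHLDA1 and DUSP5 lie between −3.89 and −1.96, the Sprouty genes between −1.03 and −0.89, DUSP4 on both sides of 0, and the intervals of ETV4 and ETV5 are wide.

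Other genes of the pathway rose and fell. These lists were also written with earlier results of these arrays known, and each gene took its brightest probe set. Their counts stand beside the 19.2% of all genes that fell and the 21.1% that rose, and with so few genes in a list they are a description of its members only. Of 5 other MAP kinase phosphatases measured, 2 rose, 1 fell and 2 did not pass. DUSP7, a cytoplasmic relative of DUSP6, fell from 900 ± 39.6 to 261 ± 31.5 (log2 difference −1.79 ± 0.12 SE). DUSP8, which acts on JNK and p38, read 80.2 ± 23.9 against 2.22 ± 0.72 and was at least 4.41-fold higher. DUSP2, a nuclear phosphatase, read 139 ± 17.6 against 9.58 ± 7.87, with 1 of 3 arrays labelled mock above the dim level. Of 10 other negative regulators of RAS and ERK, 3 rose, 2 fell and 5 did not pass, shares near those of all genes. SPRED2, a Sprouty-related inhibitor of RAS activation, rose from 206 ± 9.49 to 396 ± 44.0 (0.94 ± 0.11 SE, limma adjusted p = 0.0027), opposite in direction to the Sprouty genes. The RAF inhibitor PEBP1 rose by 1.11 on the log2 scale, and the RAS GTPase-activating protein RASAL2 and the ubiquitin ligase CBLB fell by 2.91 and 1.09.

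The kinases and adaptors of the cascade are given in the same way. Of 16 measured RAS, RAF, MEK and ERK genes and their adaptors, 5 rose, 3 fell and 8 did not pass (beside 21.1% and 19.2% of all genes), and their median log2 difference was 0.18, or 0.01 with dim genes at their bound. MAPK3, which encodes ERK1, rose from 108 ± 2.22 to 259 ± 14.8 (1.25 ± 0.09 SE), the adaptor GRB2 rose by 0.96 and the exchange factor SOS1 by 0.74, while HRAS fell by 1.16 on the log2 scale. Of 10 genes of the JNK and p38 branches, 4 rose, 1 fell and 5 did not pass. The p38 kinase MAPK13 and the p38 target kinase MAPKAPK2 rose by 1.10 and 1.07 on the log2 scale. MAP2K6 read 66.1 ± 7.52 against 7.82 ± 9.91, with 1 of 3 arrays labelled mock above the dim level, and the p38 kinase MAPK12 was the 1 that fell (log2 difference −0.84 ± 0.21 SE, limma adjusted p = 0.032). Both calls were lost with most arrays left out in turn. That of MAPK12 held only without MALT1 replicate 1 or 2, with adjusted p-values of 0.0577 without MALT1 replicate 3 and 0.0817, 0.0978 and 0.0644 without mock replicates 1, 2 and 3. That of MAP2K6 held only without mock replicate 2, with adjusted p-values of 0.0679, 0.0631 and 0.0673 without MALT1 replicates 1, 2 and 3 and 0.0715 and 0.0660 without mock replicates 1 and 3.

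Upstream receptors and downstream targets went both ways. Of 16 receptors and ligands, 5 rose, 8 fell and 3 did not pass, with a median log2 difference of −0.75 against 0.08 over all genes. EGFR fell from 5457 ± 127 to 643 ± 116, a log2 difference of −3.10 ± 0.16 SE beside the −3.31 of DUSP6. The receptor MET fell by 2.02 on the log2 scale, and log2 differences were −3.60 for the ligand EREG and −2.27 for the ligand NRG1. The 5 that rose are all receptors, named here after their values were seen. ERBB3 rose by 2.97 and ERBB2 by 1.34 on the log2 scale. RET, ERBB4 and FGFR4 were dim on every array labelled mock and were at least 55.8-fold, 22.9-fold and 9.61-fold higher on those labelled MALT1. Of 19 other ERK-induced genes, 5 rose, 9 fell and 5 did not pass, with a median log2 difference of −0.54 against −0.99 for the 10 feedback genes. The AP-1 factor FOSL1 fell from 567 ± 7.32 to 63.6 ± 5.95 (−3.14 ± 0.10 SE), the ephrin receptor EPHA2 fell by 2.84 and the chromatin protein HMGA2 by 2.64 on the log2 scale, while EPHA4 rose from 49.9 ± 7.55 to 237 ± 16.2 (2.23 ± 0.14 SE). Of 17 other ETS factors, 4 rose, 7 fell and 6 did not pass. ETS2 and ELK3 fell by 1.91 and 1.88 on the log2 scale. The epithelial factor ELF3 rose by 2.38, and SPDEF, which is also one of the luminal markers, was at least 48.5-fold higher. Neither of the 2 PHLDA1 relatives PHLDA2 and PHLDA3 passed, with log2 differences of 0.17 and 0.29 and 95% intervals that do not reach the fall of PHLDA1.

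**Figure D3:**
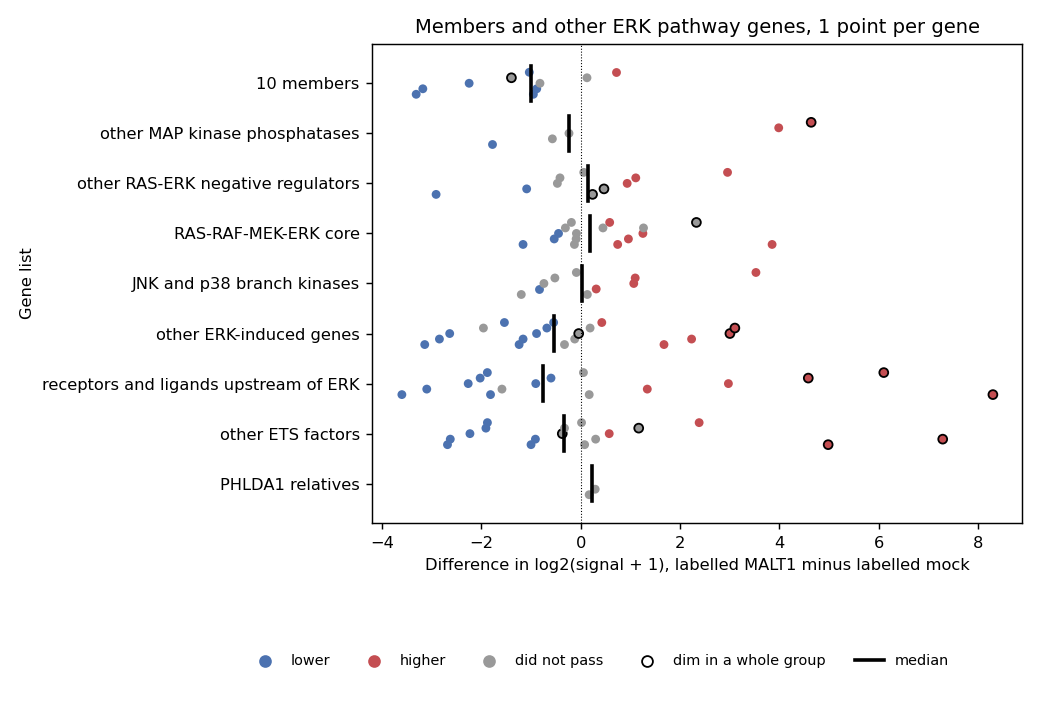
Difference in log2(signal + 1) between the groups, 1 point per gene by its brightest probe set, for the 10 feedback genes and 8 lists of other pathway genes, coloured by whether the gene passed, with black rings for genes dim in a whole group and a bar at each median. The 10 feedback genes have a median of −0.99, the other ERK-induced genes −0.54, and the RAS, RAF, MEK and ERK genes with their adaptors 0.18.

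The genes most like DUSP6 over the 6 arrays came from outside the pathway lists. Among 7544 genes above the dim level on all arrays, the most like it in root mean square distance, after the mock mean was subtracted, were the cyclin CCND2 at 0.07 log2 units, RGS20 and CASP4 at 0.08, and LPAR1 and DKK3 at 0.10. These genes share with DUSP6 mainly the step between the groups, from 5822 ± 156 to 571 ± 29.8 for CCND2. With 6 arrays in 2 groups, such likeness is a description only.

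Most genes beside the members on their chromosomes did not pass. DUSP6 and PHLDA1 both lie on chromosome 12, DUSP5 on chromosome 10 and SPRY2 on chromosome 13. Of the 5 measured genes on either side of each member in RefSeq order, 100 in all, 25 fell, 13 rose and 62 did not pass, that is 25.0% and 13.0% beside 19.2% and 21.1% of all genes. Beside DUSP6, 3 of 10 fell and 0 rose. Its nearest neighbours, KITLG and ATP2B1, gave log2 differences of −0.28 and 0.34 that did not pass. LUM was the only neighbour of DUSP6 with a larger difference than its own, but it was dim on the arrays labelled MALT1, and its fold is bounded only as at least 1.10-fold lower. Beside PHLDA1, 4 fell and 1 rose, among them GLIPR1 and TRHDE, which fell by 2.89 and 3.37 on the log2 scale. Beside SPRY2, 5 fell and 2 rose. Of these, POU4F1 and SCEL fell by 2.80 and 2.61 on the log2 scale, more than SPRY2 itself. Each was above the dim level on only 1 array labelled MALT1.

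**Figure D4:**
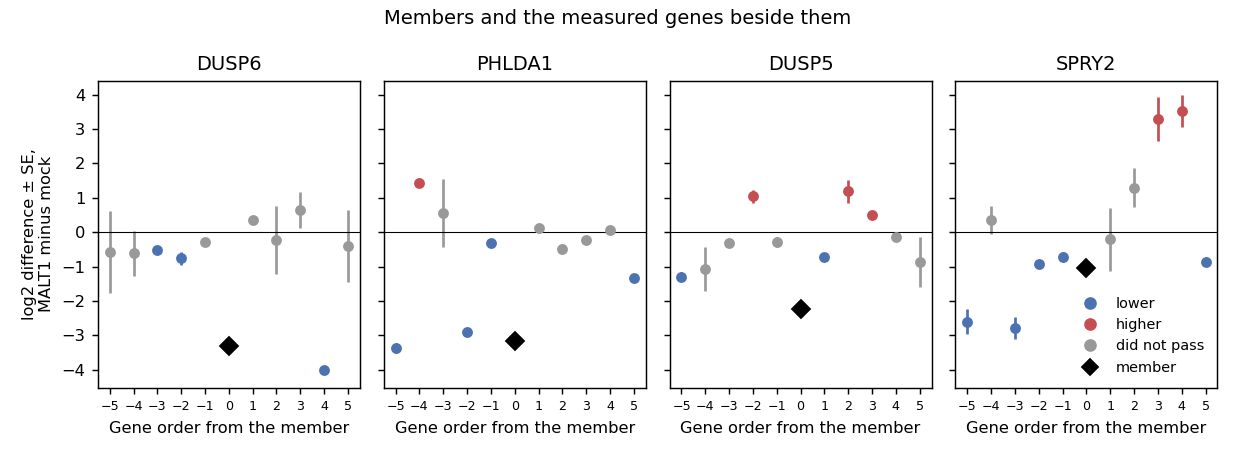
Log2 difference (± SE of the limma fit) of DUSP6, PHLDA1, DUSP5 and SPRY2 (diamonds) and of the 5 measured genes on each side (circles, coloured by whether they passed), in gene order along the chromosome. DUSP5 at −2.25 stands below all 10 genes plotted with it. DUSP6 at −3.31 stands below 9 of 10, the other being LUM, which was dim on the arrays labelled MALT1. TRHDE at −3.37 lies below PHLDA1 at −3.18, and POU4F1 at −2.80 and SCEL at −2.61 lie below SPRY2 at −1.03. The 10 genes around SPRY2 include 5 that fell.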

How the data were processed

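Total RNA extracted with Trizol was labelled with biotin, per the labels' protocols. The authors deposited linear intensity values, 1 per probe set and array, with software not given in the sources used here. Their values show that each array had been scaled to a mean of 500.1 to 500.2 after 2% was trimmed at each end. Without the 62 control probe sets, 22215 entered the test, as log2(signal + 1). The added 1 shrinks the log2 difference of dim genes, which can still exceed what their bound allows. For LUM it was −4.00, where the fold is bounded only as at least 1.10-fold lower. Of the 22215 probe sets, 19064 had 1 gene symbol, 1043 several and 2108 none. Probe sets ending in s_at or x_at can bind several transcripts. Genes with no probe set of a single symbol were not used.

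Groups were compared with limma 3.58.1 in R 4.3.3 (lmFit and eBayes, group as the only term, all 6 arrays), adjusted by Benjamini-Hochberg over all probe sets, with 0.05 as the threshold. The step was tested on simulated data. Where every array of a group read 17.6 or less, the fold is a bound, computed as the brighter group's geometric mean divided by 17.6. The number of arrays limits the precision.

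Equal replicate numbers were not treated as pairs. Named were all members, MALT1, EGFR, in each list up to 4 genes with the smallest adjusted p and any gene alone in its direction, and the 5 genes most like the member of smallest adjusted p. Neighbouring genes, the receptors that rose, within-array ratios and promoter windows shown were chosen after values were seen. The members and lists were chosen with earlier results of these data known.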

Additional observations from a re-analysis of the deposited data

How the results depend on the processing

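The count of member probe sets that fell was 10 to 13 under every alternative tried, among them a pseudocount of 16, median centring, quantile normalization, leaving out dim probe sets, an intensity trend and array weights, and DUSP5, DUSP6, SPRY2 and PHLDA1 passed in all of them. The count that rose, which is DUSP1 alone, went from 1 to 0 with the replicate number as a block, and ranged from 0 to 1 when 1 array was left out. DUSP4 turned to −0.00226 with median centring (204014_at) and ranged from −0.22 to 0.16 with 1 array left out (204015_s_at), the latter without MALT1 replicate 1. With 1 array left out, 10 to 12 member probe sets and 2879 to 3757 of all probe sets fell, and 3286 to 3573 of all rose. The replicate block gave 10 member probe sets that fell, losing SPRY1 and SPRY4, and 2795 lower and 3013 higher over all probe sets. Deviations of equal numbers had correlations of 0.059, −0.003 and 0.061 over 11107 probe sets, beside −0.082 to 0.048 for unequal numbers. With 3 arrays per group, these small values do not settle whether equal numbers mark pairs. Averaging the probe sets of a gene left 6 genes lower and 1 higher. The cause of these changes was not tested. Signals near 17.6 limit what can be said of ETV4, ETV5 and SPRY4.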
